A study of Homo sapiens with 4 samples.

Results

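The transforming growth factor beta (TGF-beta) family comprises secreted dimers, among them the TGF-betas, the bone morphogenetic proteins (BMPs) and the activins, that bind pairs of type I and type II serine/threonine kinase receptors on the cell surface. Activated type I receptors phosphorylate receptor SMADs, SMAD2 and SMAD3 for TGF-beta and activin and SMAD1, SMAD5 and SMAD9 for BMPs, which join SMAD4 and act in the nucleus as transcription factors. The pathway is held in check outside the cell by ligand traps and latency proteins and inside it by the inhibitory SMADs, SMAD6 and SMAD7, by SMURF ubiquitin ligases and by the repressors SKI and SKIL, several of which are themselves induced by the signal. In the kidney, BMP7 is known for its role in nephron formation and TGFB1 for its role in fibrosis.

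Genes were chosen by symbol from a list of 47 components of this pathway, and every probe set that names 1 of them and no other gene was used. Of the 47 genes, 46 had such a probe set (135 probe sets of the 41091 that name 1 gene), and 43 were bright enough to be tested, among 12242 genes in all. BMPR1A was not analysed here. BMP5, INHBA and INHBE lay below the filter on signal. Levels were measured on 4 Affymetrix arrays, 2 from HEK293 cells grown in high glucose (450 mg/dl) and 2 from HEK293 cells grown in low glucose (100 mg/dl), each for 7 days in DMEM with fetal calf serum. HEK293 is an established human embryonic kidney cell line, so all arrays come from 1 line, and fetal calf serum, which both media hold, is itself a source of TGF-beta family ligands. The arrays are biological replicates per the study's design text, which does not say how the cultures were kept apart, so that p-values measure the spread between these samples. The comparison asks which transcripts differ between the glucose concentrations.

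On the arrays as a whole, 57.6% of all genes tested differed between the groups (limma, adjusted p under 0.05), with 24.3% higher and 33.3% lower in high glucose, so a call on its own is common here. A difference of at least 1.5-fold was called for 10.8% of genes as higher and for 19.3% as lower, and the arrays of the groups did not overlap for 79.8%. The 24 probe sets for bacterial poly-A transcripts, which are added to RNA before labelling, had medians of 151 and 139 signal units in high glucose, against 38.1 and 44.1 in low glucose, a median difference of 1.94 log2 units (3.84-fold). The 18 hybridisation controls had medians of 486 and 875 in high glucose, against 869 and 891 in low glucose, the lowest on high glucose replicate 1. The median of 6 ribosomal RNA probe sets was 202 and 294 in high glucose, against 67.4 and 76.3 in low glucose (3.31-fold), with no overlap for 5 of the 6. The poly-A and ribosomal RNA signals moved with the groups, so their sources and glucose cannot be told apart, while the arrays overlapped in the median of the hybridisation controls. Of 6 marker genes for HEK293, 5 were above the filter (PAX2, VIM, KRT8, KRT18 and NEFL), with summed signals of 20821 to 23463 in high glucose and 19227 to 19669 in low glucose, while NEFM was below it. Single markers in this sum moved in opposite directions: VIM was 1.87-fold lower in high glucose, and KRT8 and KRT18 were 2.09-fold and 2.10-fold higher. Of 6 fibroblast markers, 2 were above the filter (COL1A1 and COL3A1), with summed signals of the list of 540.02 to 559 in high glucose and 349 to 416 in low glucose, and DCN and LUM, which define fibroblasts, were below the filter. Of the leukocyte and endothelial markers with a probe set, 0 of 4 and 1 of 4 were above it. Fewer cells expressing a gene and less RNA per cell cannot be told apart in such samples.

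In high glucose 16 of the 43 measured pathway genes were higher and 18 were lower, and 9 did not pass the test. That is 79.1% called, beside 57.6% of all genes. The median log2 difference of the 43 genes was 0.05, beside -0.10 for all genes. At least 1.5-fold differences were found for 11 higher and 9 lower genes, and these 20 also had arrays that did not overlap between the groups, as 30.1% of all genes had. The higher genes of this size were the ligands BMP4, TGFB2, BMP2, TGFB1 and BMP6, the SMADs SMAD7, SMAD6 and SMAD5, the regulators SKIL and SMURF2 and the BMP trap NOG. The lower ones were the ligands INHBB and BMP8B, the receptors BMPR1B and ACVR1B, the repressor TGIF2 and the extracellular proteins LTBP4, FST, CHRD and LTBP1. The added poly-A transcripts were also brighter in high glucose, and of the 16 higher genes SMAD7 (3.90-fold) rose by more than their median of 3.84-fold, while for BMP4 only a lower bound, of 2.29-fold, is known. The part of that difference in these results was not tested.

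**Figure D1:**
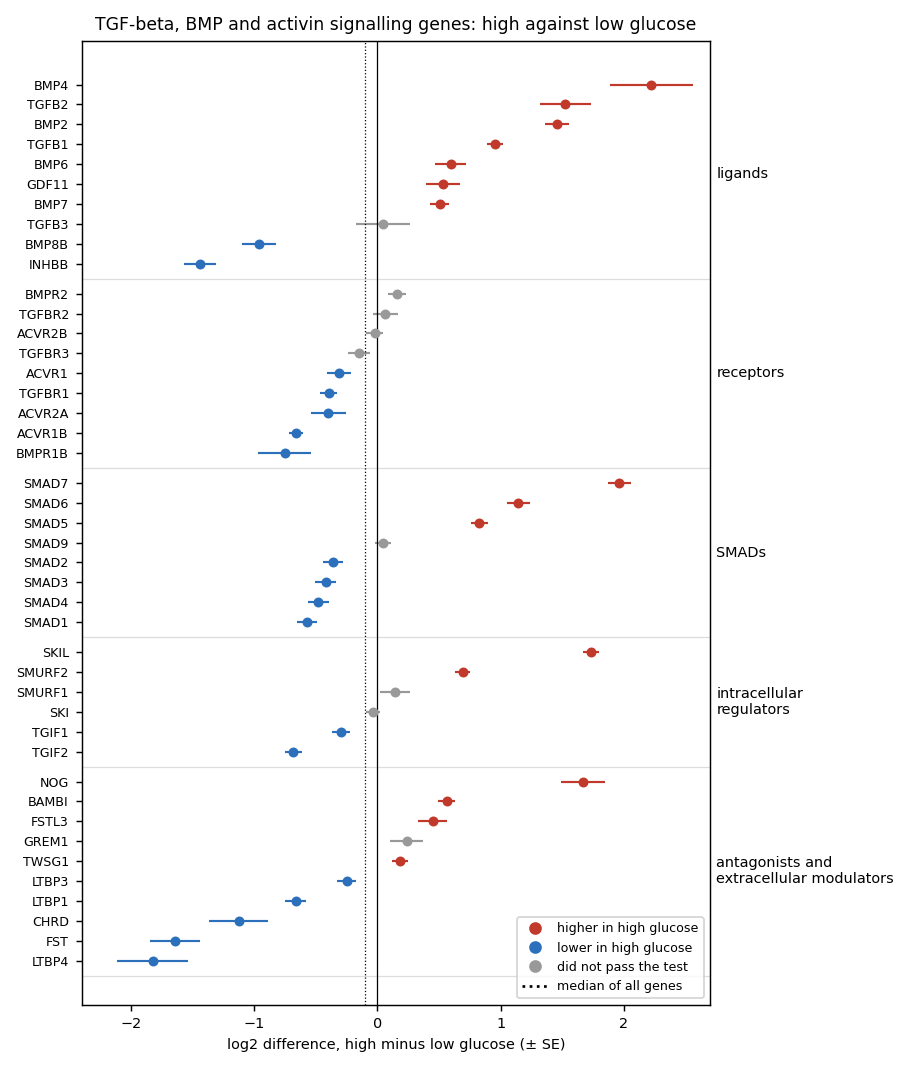
Log2 difference in signal, high minus low glucose (x axis), for the 43 measured pathway genes by role (y axis), with points for the fitted difference, bars for its SE and colour for the call. Rises and falls occur in every role except receptors, where 5 genes are lower and 0 higher, and the dotted line marks the median of all genes at -0.10.

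Among 10 measured ligands 7 were higher in high glucose, 2 were lower and 1 did not pass, with a median of 0.56 log2 units. That is 90% called, beside 57.6% of all genes, where 24.3% were higher and 33.3% lower. Without _x_at and _s_at probe sets 3 ligands were higher and 4 were lower, so the balance depends on the probe sets read. BMP2, a ligand of bone and kidney development, had 919 and 814 signal units in high glucose, against 294 and 339 in low glucose (1.46 ± 0.10 log2 units (SE), 2.74-fold, adjusted p = 2.0e-05). Its other probe set above the filter rose by 1.44 log2 units, so both gave nearly the same size of rise. BMP4, which acts through the same receptors as BMP2, had 72.0 and 79.0 signal units in high glucose, against 19.1 and 13.7 in low glucose. The low glucose signals lay below the filter signal of 32.9, where no level above background is shown, and against that signal BMP4 was at least 2.29-fold higher. BMP4 passed the filter only through its high glucose arrays. Its adjusted p of 9.8e-04 (limma) is from the measured signals, the low ones included, and does not test the 2.29-fold bound.

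TGFB1, the most widely expressed TGF-beta, had 828 and 839.9 signal units in high glucose, against 429.9 on each low glucose array (0.96 ± 0.06 log2 units, 1.94-fold, adjusted p = 2.0e-05). TGFB2 had 118 and 118 signal units in high glucose, against 41.8 and 40.4 in low glucose (1.53 ± 0.21 log2 units, 2.88-fold, adjusted p = 6.0e-04). The high and low glucose arrays of these genes were well separated, and a further TGFB2 probe set rose by 1.30 log2 units. That probe set had 15.7 signal units on a low glucose array, below the filter signal, so the size of its rise is uncertain. TGFB3, the remaining TGF-beta, stood at 0.05 ± 0.22 log2 units with overlapping arrays and did not pass. BMP6 had 282 and 320.0 signal units in high glucose, against 216 and 184 in low glucose (0.59 ± 0.13 log2 units, 1.51-fold, adjusted p = 0.0050), which is just past the 1.5-fold limit.

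The ligands that fell were of the activin and BMP8 kind. INHBB encodes the beta B subunit shared by activin B and inhibin B, and it had 157 and 200.4 signal units in high glucose, against 474 and 486 in low glucose (-1.44 ± 0.13 log2 units, 2.71-fold lower, adjusted p = 7.5e-05). BMP8B, a BMP known from germ cells and brown fat in mouse, had 107 and 123 signal units in high glucose, against 223 and 222 in low glucose (-0.96 ± 0.14 log2 units, 1.94-fold lower, adjusted p = 7.9e-04). A dimmer BMP8B probe set stood at 0.68 log2 units without passing, and with the mean of probe sets BMP8B was at -0.14 and not called. INHBE, the beta E subunit of activin E, known as a liver-enriched secreted protein, had 11.5 and 0.86 signal units in high glucose, against 115 and 117 in low glucose. Its mean over all arrays kept it below the filter. Set against the filter signal of 32.9, INHBE was at least 3.53-fold lower in high glucose. With no filter it passed the test (limma, adjusted p = 0.0091). That p is from the measured signals, the low ones included, and does not test the 3.53-fold bound. INHBA, the beta A subunit of activin A, had 13.9 and 20.5 signal units in high glucose, against 7.57 and 10.98 in low glucose in its brightest probe set, and BMP5 had 19.0 and 31.7 in high glucose, against 4.09 and 14.4 in low glucose, all below the filter signal.

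Of the remaining ligands, BMP7 and GDF11 gave probe sets that went both ways. The brightest BMP7 probe set rose by 0.50 ± 0.08 log2 units, from arrays at 478 and 485 in high glucose, against 343 and 336 in low glucose, and a dimmer one rose by 0.58. Another BMP7 probe set fell, with 251 and 281 signal units in high glucose, against 480.4 and 472 in low glucose (-0.84 log2 units), and the fourth stood at -0.21 and did not pass. GDF11, a close relative of myostatin, was higher in its brightest probe set (0.53 ± 0.14 log2 units), while its other probe sets fell by 0.72 and 0.44 log2 units. These signals therefore give no single direction for either gene, and without _x_at and _s_at probe sets, whose probes can match more than 1 transcript, BMP7 stood at -0.84 and GDF11 at -0.72. The GDF11 rise was also not called without high glucose replicate 1 (adjusted p = 0.060) or low glucose replicate 1 (0.056).

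**Figure D2:**
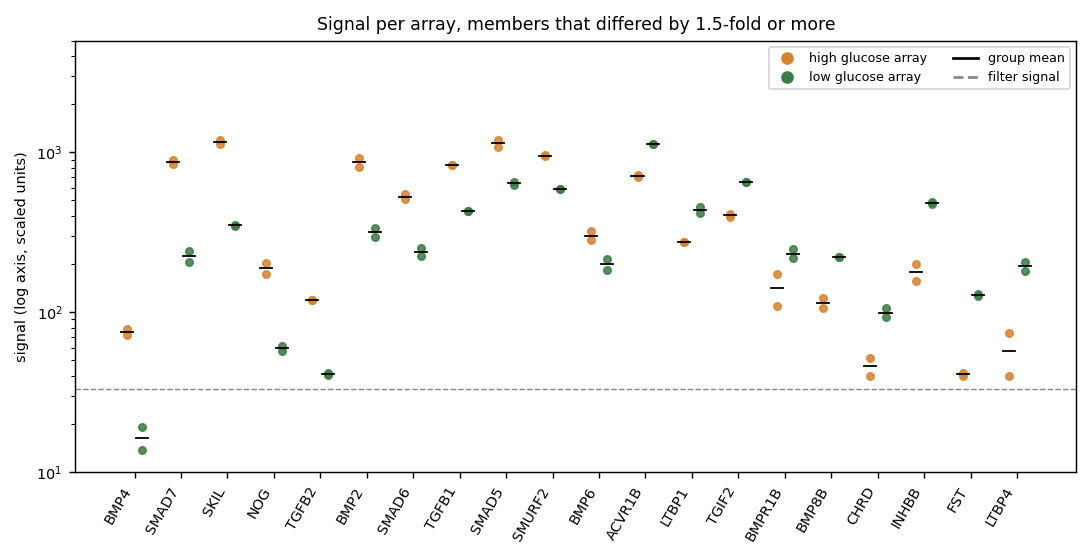
Signal on a log axis in scaled units (y axis) for the 20 pathway genes that differed by 1.5-fold or more (x axis, from the largest rise to the largest fall), with a point per array, high glucose left of low glucose, and a bar at each group mean. The arrays of the groups do not overlap for any of the 20 genes, and only BMP4 in low glucose lies below the filter signal of 32.9, the dashed line.

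Receptors were the role in which no measured gene was called higher at the main setting. Of 9 measured receptors 5 were lower in high glucose and 4 did not pass, with a median of -0.31 log2 units. Beside this, 33.3% of all genes were called lower. The count of lower receptors was 3 after quantile normalization, after median centring and with the mean of probe sets. After median centring and with the mean of probe sets 1 receptor, BMPR2, was called higher. ACVR1B, the main type I receptor for activins, had 727 and 703 signal units in high glucose, against 1121 and 1135 in low glucose (-0.66 ± 0.06 log2 units, 1.58-fold lower, adjusted p = 6.8e-05). BMPR1B, a type I BMP receptor, had 174 and 109 in high glucose, against 218 and 247 in low glucose (-0.75 ± 0.22 log2 units, 1.69-fold lower, adjusted p = 0.020). The high glucose arrays of BMPR1B lay far apart. Without high glucose replicate 2 it stood at -0.41 and was not called, without high glucose replicate 1 at -1.09, and without low glucose replicate 2 it was also not called (adjusted p = 0.076). Its other probe set above the filter stood at 0.20 and did not pass, and with the mean of probe sets BMPR1B was at -0.28 and not called.

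The type I TGF-beta receptor TGFBR1 was lower by a smaller amount (-0.40 ± 0.07 log2 units), with 702 and 727 signal units in high glucose, against 979.97 and 900.02 in low glucose. ACVR1, a type I receptor for BMPs and activins, was at -0.31 ± 0.09, and ACVR2A, a type II receptor for activins and BMPs, at -0.40 ± 0.14 log2 units. Both passed narrowly (adjusted p = 0.024 and 0.046), and after median centring of the arrays ACVR1 stood at -0.14 and ACVR2A at -0.23 and neither was called. ACVR1 also lost its call without high glucose replicate 1 or 2 or low glucose replicate 1, with adjusted p between 0.069 and 0.094, and ACVR2A lost it without any 1 of the 4 arrays and with the replicate block. The receptors that did not pass were TGFBR2 at 0.07 ± 0.10, the co-receptor betaglycan, TGFBR3, at -0.15 ± 0.09, ACVR2B at -0.02 ± 0.07 and BMPR2, the type II BMP receptor, at 0.16 ± 0.07 log2 units. Another probe set of TGFBR3 rose by 0.26 log2 units. Other probe sets of BMPR2 rose by 0.64 and 1.29 log2 units, and for ACVR2B 1 probe set rose by 0.26 and another fell by 0.97. BMPR2 was called higher after median centring (0.33 log2 units) and with the mean of probe sets (0.61), which includes that dim probe set.

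Of 8 measured SMAD genes 3 were higher, 4 were lower and 1 did not pass, 87.5% called beside 57.6% of all genes. Both inhibitory SMADs were higher in high glucose, while SMAD2, SMAD3 and SMAD4 were slightly lower in their brightest probe sets. SMAD7, which blocks type I receptors and recruits SMURF ligases to them, had 849.9 and 900.2 signal units in high glucose, against 207 and 243 in low glucose (1.96 ± 0.10 log2 units, 3.90-fold, adjusted p = 6.8e-06). It has 1 probe set. SMAD6, which acts mainly against BMP signals, had 509 and 547 signal units in high glucose, against 253 and 225 in low glucose (1.14 ± 0.10 log2 units, 2.21-fold, adjusted p = 5.6e-05). Its other probe sets above the filter stood at 0.37 and 0.68 log2 units and did not pass, so that the rise of SMAD6 rests on the brightest one.

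SMAD5, a receptor SMAD of the BMP branch, rose to 1200 and 1078 signal units in high glucose, against 626 and 656 in low glucose (0.83 ± 0.07 log2 units, 1.77-fold, adjusted p = 6.4e-05), and 3 of its other 4 probe sets rose by 0.57 to 1.25 log2 units. SMAD1 of the same branch was lower in its brightest probe set (-0.57 log2 units), with 312 and 311 in high glucose, against 476 and 450.4 in low glucose, but its other probe set stood at 0.00. SMAD9, the remaining BMP receptor SMAD, was at 0.05 ± 0.07 and did not pass. The receptor SMADs of the BMP branch therefore did not move as a group.

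SMAD4, the common partner of all receptor SMADs, had 365 and 416 signal units in high glucose, against 547 and 541 in low glucose (-0.48 ± 0.09 log2 units, adjusted p = 0.0023). Its other probe sets above the filter fell by 0.87 and 1.00 log2 units. In the probe set that fell by 0.87, the high glucose signals of 30.2 and 27.9 lay below the filter signal, so that size is uncertain. SMAD2 was at -0.36 ± 0.08 log2 units, with other probe sets between -0.22 and 0.17 that did not pass, and after median centring it was at -0.19 and not called. For SMAD3 the brightest probe set fell by 0.42 log2 units, with 335 and 365 signal units in high glucose, against 465 and 471 in low glucose. Another SMAD3 probe set rose, with 273 and 349 in high glucose, against 167 and 158 in low glucose (0.93 log2 units), as did a further one (0.91). SMAD3 thus has no single direction on these arrays, and with the mean of its probe sets it stood at 0.36 and was not called.

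Sequence upstream of the genes was read from RefSeq promoters (GRCh38.p14), which hold 42 of the 47 genes. The windows shown are the 250 bases before the start. They were searched on both strands for the palindrome to which SMAD3 and SMAD4 are known to bind, GTCTAGAC, and for GGCGCC, a GC-rich element known from BMP-responsive genes; both read the same on either strand. The palindrome was in 0.182% of the 35116 windows of all genes, and of the 42 pathway genes SMAD6 alone held it, between 12 and 5 bases before its start, at chr15:66701986-66702235, plus strand. The GC-rich element was in 16.4% of all windows and in 19 of the 81 windows of the pathway genes (23.5%). By gene, it was in a window of 19.0% of all genes. Among the 42 pathway genes 17 (40.5%) had it, of which 4 were higher, 11 lower and 2 did not pass, so it was found with either direction. The 42 genes have 81 windows and all 27305 genes have 35116, more windows per pathway gene. The shares by gene are therefore not like for like. BMP4, which rose, held it once at chr14:53955051-53955300, minus strand, in 1 of its 3 windows, and INHBB, which fell, held it at 2 places at chr2:120345886-120346135, plus strand. A match is a description of letters and not a site of binding. The windows are given 5′ to 3′, with the matched letters in capitals.
SMAD6: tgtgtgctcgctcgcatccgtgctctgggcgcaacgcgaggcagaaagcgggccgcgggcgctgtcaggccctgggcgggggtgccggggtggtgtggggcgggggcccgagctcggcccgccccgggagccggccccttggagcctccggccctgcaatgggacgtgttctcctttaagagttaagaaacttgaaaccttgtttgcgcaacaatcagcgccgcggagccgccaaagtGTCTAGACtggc
BMP4: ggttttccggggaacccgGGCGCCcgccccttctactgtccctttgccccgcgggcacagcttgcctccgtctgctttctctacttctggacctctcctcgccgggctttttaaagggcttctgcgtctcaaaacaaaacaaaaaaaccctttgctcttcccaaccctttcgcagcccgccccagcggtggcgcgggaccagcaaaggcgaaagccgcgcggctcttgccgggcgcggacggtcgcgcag
INHBB: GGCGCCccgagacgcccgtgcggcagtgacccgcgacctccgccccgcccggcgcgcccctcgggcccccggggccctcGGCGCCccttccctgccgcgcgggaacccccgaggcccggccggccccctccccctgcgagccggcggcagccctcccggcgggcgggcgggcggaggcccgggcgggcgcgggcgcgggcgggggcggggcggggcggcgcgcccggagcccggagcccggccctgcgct

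Among 6 intracellular regulators 2 were higher in high glucose, 2 were lower and 2 did not pass, 66.7% called beside 57.6% of all genes. SKIL (SnoN), a repressor of SMAD complexes whose transcription TGF-beta is known to induce, had 1191 and 1128 signal units in high glucose, against 348 and 349.8 in low glucose (1.73 ± 0.07 log2 units, 3.32-fold, adjusted p = 2.0e-06). A dimmer SKIL probe set rose by 0.91 log2 units. Its paralog SKI, a repressor of the same complexes, stood at -0.03 ± 0.05 in its brightest probe set and rose by 0.73 in a dimmer one, and with the mean of probe sets SKI was called higher (0.35 log2 units). SMURF2, a ubiquitin ligase for receptors and SMADs, had 943 and 962 signal units in high glucose, against 593 and 586 in low glucose (0.69 ± 0.06 log2 units, 1.61-fold, adjusted p = 6.2e-05).

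Probe sets of SMURF2 did not give 1 size or 1 direction. Another had 422 and 426 signal units in high glucose, against 94.5 and 94.9 in low glucose, a rise of 2.16 log2 units, a further one fell by 0.38, and the fourth was at -0.04. Without _x_at and _s_at probe sets SMURF2 was called lower, at -0.38. Its relative SMURF1 stood at 0.14 ± 0.12 and did not pass. TGIF2, a homeobox repressor of SMAD targets, had 396 and 414 signal units in high glucose, against 652 and 648 in low glucose (-0.68 ± 0.07 log2 units, 1.60-fold lower, adjusted p = 1.4e-04), but its other probe set rose by 0.43, and with their mean it stood at -0.13 and was not called. TGIF1, its paralog, was at -0.29 ± 0.07 log2 units (adjusted p = 0.011) and lost its call after median centring (-0.12) and without high glucose replicate 1 (adjusted p = 0.053).

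**Figure D3:**
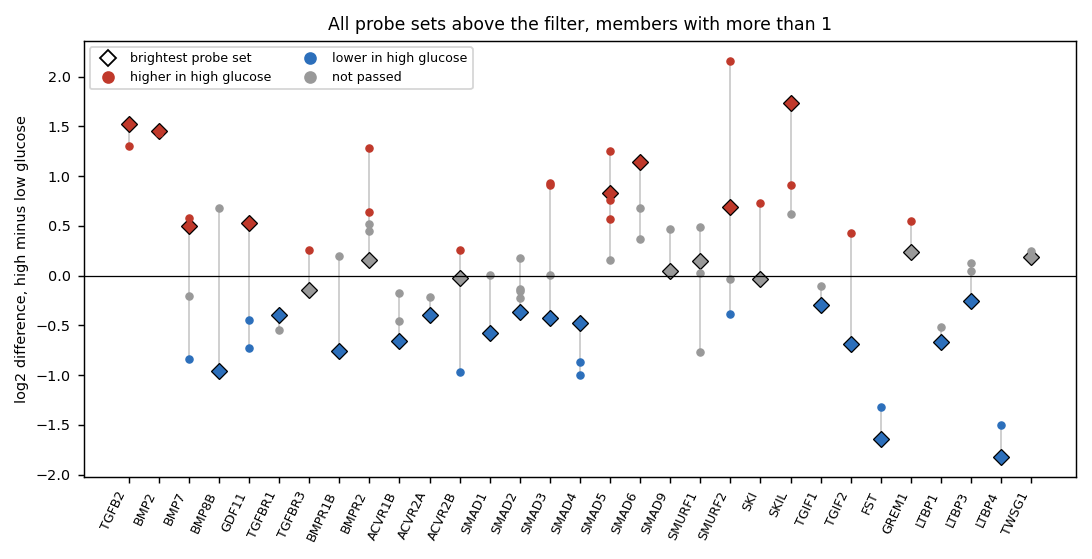
Log2 difference in signal, high minus low glucose (y axis), for every probe set above the filter of the 31 pathway genes with more than 1 (x axis), with diamonds for the brightest probe set of a gene and colour for the call over all probe sets tested. BMP7, GDF11, ACVR2B, SMAD3, SMURF2 and TGIF2 each have probe sets called higher and probe sets called lower.

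Across all roles, 98 probe sets of the 43 genes were above the filter, and 51.9% of all probe sets tested this way were called. Of the 31 pathway genes with more than 1 such probe set, 6 (19.4%) had calls in both directions, beside 563 of 6255 genes (9.0%) on the arrays. All probe sets passed in the same direction for 5 of the 31 genes: TGFB2, BMP2, SMAD4, FST and LTBP4. For the others with more than 1, at least 1 probe set did not pass or went the other way. The agreement for FST, SMAD4 and TGFB2 includes a dim probe set with signals below the filter signal in the lower group. These were 23.8 and 18.3 for FST and 30.2 and 27.9 for SMAD4 in high glucose. For TGFB2 the signal was 15.7 on a low glucose array. The sizes of these differences are therefore uncertain. A further 12 genes, among them TGFB1, BMP4, INHBB, SMAD7, NOG and CHRD, rest on a single probe set above the filter.

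Of the 10 antagonists and extracellular modulators 4 were higher in high glucose, 5 were lower and 1 did not pass, 90% called beside 57.6% of all genes. Noggin, NOG, a secreted trap for BMP2, BMP4 and related BMPs, had 204 and 174 signal units in high glucose, against 56.9 and 61.8 in low glucose (1.67 ± 0.18 log2 units, 3.18-fold, adjusted p = 1.7e-04). Chordin, CHRD, a further secreted BMP trap, went the opposite way, with 40.02 and 51.4 signal units in high glucose, against 92.7 and 106 in low glucose (-1.13 ± 0.24 log2 units, 2.18-fold lower, adjusted p = 0.0050). The BMP traps therefore did not move together. Gremlin, GREM1, which also binds BMPs, was at 0.24 ± 0.13 log2 units and did not pass, and after median centring it was called higher (0.41). Its other probe set above the filter rose by 0.55 log2 units and was called higher. TWSG1, a chordin partner, was higher by 0.19 ± 0.07 log2 units (adjusted p = 0.045), a call that was lost without high glucose replicate 1 (0.15 log2 units), high glucose replicate 2 (0.22 log2 units) or low glucose replicate 2 (0.13 log2 units).

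Follistatin, FST, which binds activins almost irreversibly, had 40.1 and 41.8 signal units in high glucose, against 130.005 and 126 in low glucose (-1.64 ± 0.21 log2 units, 3.12-fold lower, adjusted p = 3.8e-04). A dimmer FST probe set fell by 1.32 log2 units. Its high glucose signals of 23.8 and 18.3 lay below the filter signal, so the size of that fall is uncertain. FSTL3, a follistatin relative that also binds activins, was higher by 0.45 ± 0.12 log2 units, with 275 and 265 signal units in high glucose, against 185 and 212 in low glucose, and this call was lost without high glucose replicate 1 (adjusted p = 0.064) or low glucose replicate 1 (0.053). The activin subunit INHBB, described above, was lower in the same cells as FST. BAMBI, a decoy receptor without kinase activity that is known to be induced by BMP and TGF-beta, was higher, with 819 and 903 signal units in high glucose, against 598 and 569 in low glucose (0.56 ± 0.07 log2 units, adjusted p = 4.4e-04), just under the 1.5-fold limit at 1.48-fold. SMAD1 lay just under it on the other side, at 1.49-fold lower.

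The latent TGF-beta binding proteins, which anchor the inactive TGF-beta complex in the matrix, were lower in high glucose in the brightest probe sets of LTBP1, LTBP3 and LTBP4. LTBP4 had 40.1 and 74.0 signal units in high glucose, against 181 and 205 in low glucose (-1.82 ± 0.29 log2 units, 3.54-fold lower, adjusted p = 0.0012). The high glucose arrays of LTBP4 differed from each other, but both lay far below the low glucose arrays, and another probe set fell by 1.498 log2 units. Both LTBP4 probe sets above the filter are of the _x_at type, whose probes can match more than 1 transcript. LTBP4 therefore had no value without _x_at and _s_at probe sets. LTBP1 had 274 and 274 signal units in high glucose, against 417 and 452 in low glucose (-0.66 ± 0.09 log2 units, 1.58-fold lower, adjusted p = 4.9e-04). LTBP3 was at -0.25 ± 0.08 log2 units and passed narrowly (adjusted p = 0.026), and it was not called after median centring (-0.08), nor without high glucose replicate 2 (-0.19) or low glucose replicate 1 (-0.17), and stood at 0.13 without _x_at and _s_at probe sets. So TGFB1 and TGFB2 were higher while LTBP1 and LTBP4 were lower on the same arrays.

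Genes known as transcriptional targets of TGF-beta or BMP were read from a list of 23, of which 20 were measured. In high glucose 13 of them were higher and 4 were lower, and 3 did not pass, with a median of 0.49 log2 units beside -0.10 for all genes. That is 85% called, beside 57.6% of all genes, where 24.3% were higher and 33.3% lower. The list was written with earlier results of these data known, so its counts are a description and not a test. THBS1, among the 13, had 16.2 and 8.70 signal units in low glucose, below the filter signal of 32.9. It passed the filter only through its high glucose arrays. For COL1A1 and ID4, also among them, the brightest probe set was called higher (0.55 and 0.43 log2 units) and another lower (-0.99 and -0.65). CCN2, a matricellular protein induced by TGF-beta and also by other signals, had 3225 and 3149 signal units in high glucose, against 43.4 and 58.5 in low glucose (5.98 ± 0.13 log2 units, adjusted p = 3.8e-07). ID1, the best known direct target of BMP SMADs, had 3125 and 3174 signal units in high glucose, against 481 and 441 in low glucose (2.77 ± 0.06 log2 units, 6.84-fold, adjusted p = 3.8e-07). ID2 of the same family rose 2.71-fold. The target with the largest fall was CDKN1A, the cell cycle inhibitor p21, which TGF-beta induces but so do p53 and other stress signals, with 628 and 659.8 signal units in high glucose, against 2548 and 2437 in low glucose (-1.95 ± 0.06 log2 units, adjusted p = 8.1e-07). The list is thus not of 1 direction, and several of its genes answer to other pathways too.

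**Figure D4:**
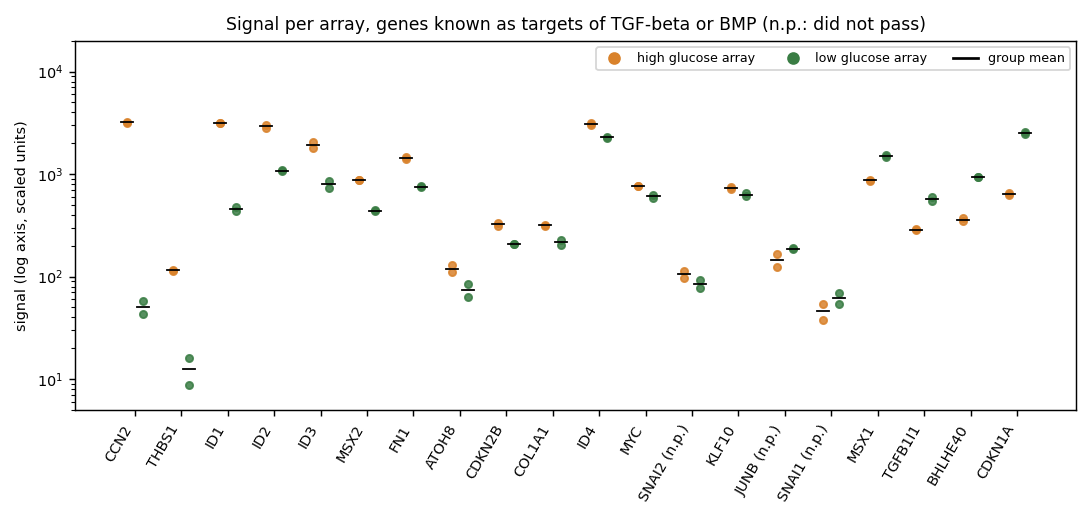
Signal on a log axis in scaled units (y axis) for 20 genes known as targets of TGF-beta or BMP (x axis, from the largest rise to the largest fall), with a point per array, high glucose left of low glucose, and a bar at each group mean. CCN2, at 3225 and 3149 in high glucose against 43.4 and 58.5 in low glucose, shows the widest gap, and MSX1, TGFB1I1, BHLHE40 and CDKN1A are lower in high glucose.

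Further components of the pathway outside the 47 genes were taken from 4 lists. Of 5 measured further receptors and co-receptors 3 were lower in high glucose and 0 were higher. That is 60% called, near the 57.6% of all genes, and 33.3% of all genes were lower. The BMP co-receptor RGMA had 168 and 182 signal units in high glucose, against 338 and 355 in low glucose (-0.99 log2 units). Its relative RGMB had 179.9 and 192 in high glucose, against 355 and 429 in low glucose (-1.07 log2 units). The endothelial type I receptor ACVRL1 was also called lower (-1.16 log2 units, adjusted p = 0.042), from low signals. It had 23.4 and 46.0 signal units in high glucose, against 56.6 and 94.7 in low glucose. High glucose replicate 1 lay below the filter signal of 32.9, so the size of the ACVRL1 fall is uncertain. NRP1, a co-receptor for several ligands, was at -0.20 and did not pass, and with the mean of its probe sets was called higher (0.66). Of 3 measured further ligands 0 passed (GDF7, INHBC and GDF2).

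Among 11 measured further extracellular modulators and processing enzymes 3 rose and 3 fell, 54.5% called beside 57.6% of all genes. The integrin subunits ITGB8 and ITGAV, whose dimer releases TGF-beta from its latent complex, were higher in high glucose. ITGB8 had 561 and 512 signal units in high glucose, against 101 and 153 in low glucose (2.11 ± 0.18 log2 units, 4.31-fold, adjusted p = 6.7e-05), and ITGAV had 1082 and 1156 in high glucose, against 609.99 and 637 in low glucose (0.84 ± 0.06 log2 units). FSTL1, a secreted follistatin-like glycoprotein, rose 1.67-fold, and HTRA1, a serine protease that acts on TGF-beta family proteins, fell 2.10-fold. Of 22 measured further intracellular regulators 4 were higher and 4 lower. That is 36.4% called, fewer than the 57.6% of all genes. WWP1, a ubiquitin ligase related to the SMURFs, rose 2.27-fold (1.18 ± 0.06 log2 units), TOB1, a BMP SMAD repressor known from mouse, rose by 0.46, and the adaptors of the TGF-beta-activated kinase, TAB1 and TAB2, were lower, at -0.73 and -0.34 log2 units. Another TOB1 probe set stood at 0.04 log2 units and did not pass.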

How the data were processed

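Each array gave 1 signal intensity per probe set on a linear scale, as deposited by the authors. GCOS, the Affymetrix array software, is named in the submitters' processing notes without a version, and other steps are not given in the sources used. The 2% trimmed mean was 200.02 on each array, so the deposited intensity values had been scaled to a common level, and a shift of most transcripts at once would not show. Detection calls were not used here. The number of arrays limits the precision.

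GEO's platform annotation gave 1 gene for 41097 of 54675 probe sets, several for 1801 and none for 11777. Symbols were updated through the RefSeq table of GRCh38.p14 (41043 matched). After the 62 control probe sets were left out, probe sets with a mean log2 signal at or above the median (a signal of 32.9) were kept. Each gene was read from its brightest probe set. High and low glucose were compared on log2 signals, with no pseudocount and no covariate, with limma 3.58.1 in R 4.3.3 (lmFit, eBayes with an intensity trend). Two-sided p-values were adjusted (Benjamini-Hochberg) over all 12242 genes, with 0.05 as the threshold. Calls of single probe sets were adjusted over all 23071 kept probe sets. Differences are high minus low glucose, with SEs from the fit. The steps were tested on simulated data.

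The genes and lists were chosen with earlier results of these data known. Full values are given for pathway genes called at 1.5-fold or more without overlap of arrays, and the log2 difference for the others. From each list of other pathway genes up to 4 with the smallest p are named. NRP1, MSX1, TGFB1I1, BHLHE40, THBS1, COL1A1 and ID4, and the genes in the closing observations, are named outside this rule, with their values already seen. Alternatives covered normalization between arrays, the filter, a pseudocount of 16, the trend, the choice of probe sets, the replicate number as a block and leaving out each array.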

Additional observations from a re-analysis of the deposited data

How the results depend on the processing

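Of 593 recomputed values of the 43 pathway genes under the alternatives, 525 kept their direction and their side of the threshold, 47 lost the call, 5 gained it and 16 changed sign, 9 of these in genes that had not passed. Of the 20 genes with differences of 1.5-fold or more, 16 kept direction and call under every alternative that could give them a value. The others were BMP8B, BMPR1B, SMURF2 and TGIF2. Of the 16, TGFB1, BMP4, SMAD6, CHRD, LTBP1 and LTBP4 had no value without _x_at and _s_at probe sets, so that alternative did not test them. The main counts were 16 higher and 18 lower, and median centring gave 18 and 13, with the median over all genes then at 0.07. The count of lower genes was 10 with the mean of probe sets, and the count of higher genes was 8 without _x_at and _s_at probe sets, where 35 genes were left. The median of the 43 genes was 0.22 after median centring, 0.013 with the stricter filter, 0.0088 with the pseudocount, -0.021 without _x_at and _s_at probe sets and 0.10 over every probe set. Leaving out 1 array gave 13 to 15 higher genes, 14 to 16 lower genes and medians of 0.0038 to 0.053. Directions turned without _x_at and _s_at probe sets for BMP7 (-0.84), GDF11 (-0.72), SMAD1 (0.0049), SMURF2 (-0.38) and LTBP3 (0.13). With the mean of probe sets the sign changed for GDF11 (-0.21), SMAD3 (0.36), SKI (0.35), TGFBR3 (0.057) and SMURF1 (-0.026), and among the other listed genes for NRP1 (0.66), FKBP1A (0.18), PPM1A (0.66), HIPK2 (0.15), COL1A1 (-0.0014), ID4 (-0.0089), STUB1 (-0.054), TRIM33 (0.097), ZEB2 (0.079), MAP3K7 (-0.0011) and NEFL (0.16). These alternatives read other probe sets. Further sign changes were all in genes that had not passed and did not pass then. They were found after median centring for TGFBR3 (0.024), ACVR2B (0.15), SKI (0.14), BMP1 (0.14), FKBP1A (0.029), PPM1A (0.12), NEDD4L (0.087), TRIM33 (0.099), ZEB2 (0.0998), XIAP (0.077) and NEFL (0.026). After quantile normalization or cyclic loess they were found for BMP1 (0.068 and 0.027) and ZEB2 (0.056 and 0.060), and without _x_at and _s_at probe sets for PPM1A (0.069) and USP9X (-0.0052). Over the fits that leave out 1 array, the values straddled 0 for TGFB3 (-0.015 to 0.11), ACVR2B (-0.054 to 0.013), INHBC (-0.12 to 0.34), GDF2 (-0.19 to 0.58), BMP1 (-0.14 to 0.094), PPM1A (-0.12 to 0.020), NEDD4L (-0.20 to 0.033), TRIM33 (-0.21 to 0.068), ZEB2 (-0.33 to 0.19), XIAP (-0.23 to 0.046) and PECAM1 (-1.08 to 0.16). With the replicate block 16 genes were higher and 17 lower, and same-numbered arrays did not deviate together (r = -0.0039 over 12242 genes), so the numbers are not shown to pair the samples; ACVR2A lost its call under the block. Low signals limit BMP4, INHBE, INHBA and BMP5.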

Other observations

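Certain probe sets below the filter, chosen after their values were seen and given with no test, separated the groups. Another LTBP4 probe set had 6.49 and 10.1 signal units in high glucose, against 103 and 97.8 in low glucose, and another FST probe set had 11.1 and 14.5 in high glucose, against 44.3 and 47.4 in low glucose, the same direction as their brighter probe sets. TGFBI, an extracellular matrix protein named for its induction by TGF-beta, had 52.9 and 56.3 signal units in high glucose, against 6.45 and 3.80 in low glucose. LEFTY1, a secreted inhibitor of NODAL, had 2.18 and 7.99 in high glucose, against 41.9 and 26.3 in low glucose.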
